A study of Mus musculus with 4 samples.

Results

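The 9 genes described here encode transcription factors that set the lineages of dendritic cells (DCs): Irf4, Irf8, Batf3, Id2, Zeb2, Klf4, Zbtb46, Spib and Tcf4. They were chosen by name, and all 9 are among the 22631 gene rows of both deposited matrices. DCs carry antigen from the skin to the draining lymph node. The conventional DCs of type 1 (cDC1) depend on IRF8, BATF3 and ID2. Those of type 2 (cDC2) use IRF4, with ZEB2 and KLF4 in some of their branches. Plasmacytoid DCs (pDCs) depend on the E protein TCF4 and use SPIB, while ZBTB46 marks conventional DCs, and Langerhans cells, the DCs of the epidermis, need ID2.

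Single-cell RNA sequencing was done on migratory DCs from the ear-draining lymph node of mice heterozygous for the OX40L-BFP reporter allele Tnfsf4KI/+, in which blue fluorescent protein (BFP) stands for Tnfsf4, which encodes OX40L, a costimulatory ligand for T cells. All groups carried this allele. MC903, a vitamin D analogue that induces TSLP and allergic inflammation in skin, was put on the ears at days 0, 2 and 4 or the ears had no treatment, with lymph nodes collected at day 5. The sort took B220-negative, CD11c-intermediate, MHC class II-high cells, 5000 of them BFP+ and 7000 BFP- per treatment, and each population was stained with its own hashtag, an antibody that carries a DNA barcode. The BFP+ and BFP- cells of 1 treatment were then captured together, so there is 1 pool per population, and treatment cannot be told apart from capture and sequencing lane. The sources used here do not give age, sex or the number of mice in a pool.

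The population of each barcode rests on 4 hashtag sequences, which are shown because all reporter comparisons depend on them.
Untreated BFP+ cells: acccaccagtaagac
Untreated BFP- cells: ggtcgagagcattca
MC903 BFP+ cells: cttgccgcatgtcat
MC903 BFP- cells: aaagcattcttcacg

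After removal of barcodes under 500 genes or above 10% mitochondrial UMIs (unique molecular identifiers, each standing for 1 captured transcript), 8422 of 9520 untreated and 5636 of 6316 MC903 barcodes were left, with a median of 2622 and 9219 UMIs. The 2 captures shared 21 barcode sequences. A barcode was assigned to the population that gave at least 80% of at least 20 hashtag counts, which gave 404 BFP+ and 3744 BFP- DCs in the untreated capture and 1312 and 2929 after MC903. The hashtags separated less well in the untreated capture, where 1301 DCs had a mixed hashtag signal, against 104 after MC903. Over all kept untreated barcodes, 593 were BFP+, 5719 BFP- and 2099 mixed, though 5000 BFP+ and 7000 BFP- cells were sorted. Their median count was 14 for the BFP+ and 168 for the BFP- hashtag. The untreated BFP+ DCs compared here are thus few beside the 5000 BFP+ cells sorted. Whether other sorted BFP+ cells are among the mixed or BFP- barcodes was not tested. The reporter transcript followed the assignment: BFP stood at 65.9 CPM (UMIs of the gene scaled to 1000000 UMIs of the sum) in BFP+ and 6.24 CPM in BFP- untreated DCs, and at 106 and 10.6 CPM after MC903. Tnfsf4 stood at 26.1 against 4.42 CPM and at 33.5 against 4.68 CPM.

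DC types were gated per barcode on at least 2 markers of a type. The gates held 42 untreated and 8 MC903 barcodes as cDC1, 1394 and 1162 on the marker list of mature cDC1 (Apol10b, Laptm4b, Smagp, Asprv1, Apol7c), 50 and 52 as Langerhans cells, 225 and 56 as cDC2 and 22 and 17 on the marker list of pDC (Siglech, Ccr9, Upb1 and others). Another 3720 and 3050 barcodes carried migratory DC markers such as Ccr7 and Fscn1 but passed no type gate. Markers kept out of the gates were high in the cDC1 gate, with Naaa at 863 and 870 CPM against 30.6 and 13.3 CPM over all DCs, and in the Langerhans gate, with Mfge8 at 676 and 403 CPM against 242 and 80.3 CPM. Sirpa was at 129 and 179 CPM in the cDC2 gate against 62.0 and 68.3 CPM, and Itgam at 5.69 and 4.27 CPM against 1.75 and 0.865 CPM. The name of the pDC list is uncertain: 21 of 22 and 16 of 17 of its barcodes had at least 2 migratory DC markers. The sort took B220-negative cells, but 385 untreated and 415 MC903 barcodes were still B-gated. Ly6d was at 1106 and 1698 CPM in the barcodes of the pDC list, but also at 1247 and 1622 CPM in B-gated barcodes. Of the genes tied to pDCs above, Tcf4 was at 587 CPM in the untreated barcodes of this list (448 to 756), against 155 CPM over all DCs. Spib was at 68.5 CPM (27.5 to 141) against 31.5 CPM untreated, and at 123 CPM (75.9 to 187) against 42.6 CPM after MC903. These Spib levels rest on 7 and 21 UMIs. What these few barcodes are was not tested. They are called Siglech/Ccr9-gated, and their levels alone are given. The name of the mature cDC1 list was not borne out by Wdfy4, a cDC1 marker kept out of the gates. Wdfy4 was at 11.5 and 5.1 CPM in its barcodes, against 26.1 and 13.1 CPM over all DCs. The other cDC1 markers kept out, Naaa and Ppt1, are not given for this list. Those barcodes are therefore called Apol7c/Apol10b-gated. No test was run on any contrast, because barcodes of 1 pool are not replicates, and all intervals are exact 95% intervals that cover counting error only. Fewer cells of a type and less RNA per cell cannot be told apart in such sums.

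**Figure D1:**
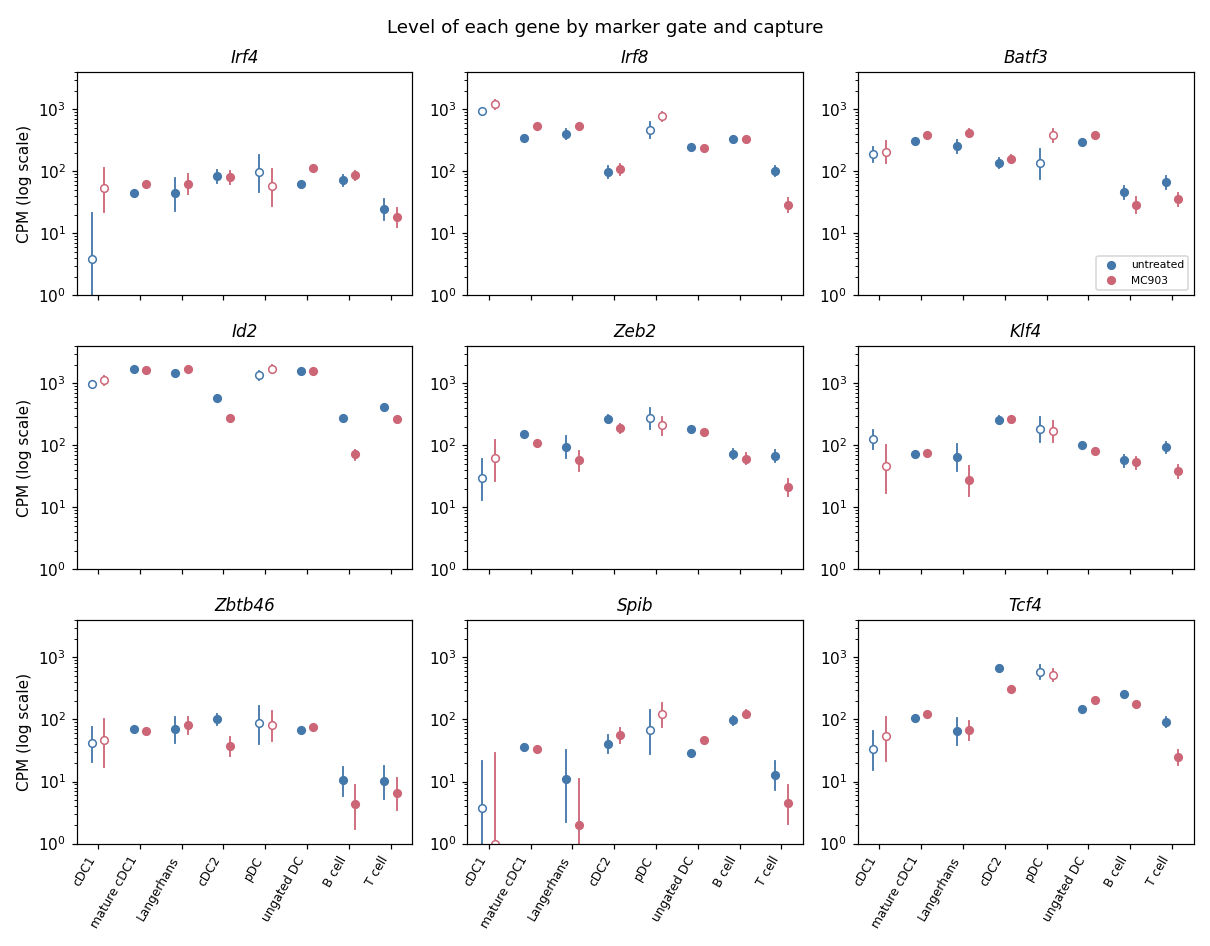
Level of the 9 genes in CPM (log axis) in each marker gate and in B-gated and T-gated barcodes. Points are sums over all barcodes of a gate in 1 capture, lines are exact 95% Poisson intervals, open points are gates under 50 barcodes, and values or bounds under 1 CPM are drawn at 1. Gates carry the names of their marker lists, so mature cDC1 stands for Apol7c/Apol10b-gated and pDC for Siglech/Ccr9-gated DCs. Irf8 is highest in the cDC1 gate (927 and 1201 CPM), and Tcf4 and Klf4 are high in the cDC2 gate.

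IRF8 and IRF4 are related factors that bind DNA with partners of the ETS and AP-1 families, and they mark the cDC1 and cDC2 branches in textbook accounts. Irf8 was at 284 CPM over all untreated DCs (5837 UMIs) and at 334 CPM after MC903 (15046 UMIs). By gate, in the untreated capture, it ran from 927 CPM in cDC1 through 460 in Siglech/Ccr9-gated DCs, 398 in Langerhans cells, 348 in Apol7c/Apol10b-gated and 242 in ungated migratory DCs to 97.8 in cDC2. After MC903 the values were 1201, 764, 530, 544, 238 and 107 CPM in the same order. The cDC1 and cDC2 gates were thus the ends of the Irf8 range in both captures, while Langerhans and Apol7c/Apol10b-gated DCs lay close together.

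Irf4 was at 57.2 CPM over all untreated DCs (1177 UMIs) and at 96.0 CPM after MC903 (4328 UMIs). The untreated cDC1 gate held 1 Irf4 UMI, or 3.78 CPM with an interval up to 21.1 CPM. In the cDC2 gate Irf4 was at 83.1 CPM, against 56.0 CPM in the other untreated DCs, a log2 ratio of 0.57 (interval 0.21 to 0.91) that lies under the 1.5-fold rule used here. After MC903 the cDC2 gate was at 80.01 and the other DCs at 96.3 CPM. Irf4 was therefore scarce in untreated cDC1, but it was not high in the cDC2 gate in both captures.

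A gene was counted as apart when its higher level was at least 20 CPM and the ratio at least 1.5-fold. In the cDC1 gate 8 of the 9 genes were apart from the other DCs in each capture, where 55.6% of all genes were apart in the untreated and 57.8% in the MC903 capture. The count fell to 5 untreated with thinned barcodes, with clusters in place of gates or with mixed-lineage barcodes kept. It fell to 4 after MC903 with thinned barcodes or gates made after thinning. The shares of all genes under these settings are not given. Irf8 was the 1 gene that was higher, by a log2 ratio of 1.75 (interval 1.56 to 1.94) untreated and 1.86 (1.62 to 2.09) after MC903. Batf3, which partners JUN proteins at AP-1 sites, was at 189 against 295 CPM in the untreated cDC1 gate, and Id2, an inhibitor of E proteins, at 976 against 1572 CPM. The direction of Batf3 turned with thinned barcodes (0.054), and after MC903 with gates made after thinning (0.076, 2 barcodes). Zeb2, a repressor of the ZEB family, was at 30.3 against 177 CPM and Tcf4 at 34.0 against 157 CPM. The untreated cDC1 barcodes had a median of 3 migratory DC markers. That median was 5 in the untreated cDC2 gate and 7 in the Langerhans and Apol7c/Apol10b gates. The part of maturity in these lower levels was not tested. The interval of Zbtb46 includes 0 in both captures, and its direction turned with thinned barcodes (0.046 untreated, 0.71 after MC903). The MC903 gate rests on 8 barcodes, where the intervals of Irf4 and Klf4 also include 0. Of these, 1 barcode has a mixed hashtag, and the other 7, all BFP-, held 2 of the 7 Irf4 UMIs, 1 of the 8 Zeb2 UMIs and 142 of the 156 Irf8 UMIs. In the same gate Spib was not detected, where the other DCs had 42.7 CPM and 3 counts would be 23.1 CPM.

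In the cDC2 gate 6 of the 9 genes were apart in each capture, beside 34.3% of all genes untreated and 40.9% after MC903. In untreated cDC2 Tcf4 was at 667 CPM, where the other DCs had 132 CPM (log2 ratio 2.33, interval 2.20 to 2.46), and after MC903 it was at 313 CPM, where they had 180 CPM (0.79, 0.62 to 0.96). Klf4, a zinc finger factor, was at 258 against 90.9 CPM (1.51, 1.30 to 1.71) untreated, with 263 against 80.1 CPM in the other capture (1.72, 1.53 to 1.90). Of the 247 Klf4 UMIs in the MC903 cDC2 gate, 224 came from 41 BFP- barcodes (329 CPM). The 14 BFP+ barcodes of that gate were at 95.5 CPM (60.6 to 143). Zeb2 was at 269 against 171 CPM untreated, and at 188 against 144 CPM after MC903, which is under the 1.5-fold rule. Irf8, Batf3 and Id2 were lower in both captures, with Id2 at 585 CPM in untreated cDC2 (other DCs 1608 CPM) and 272 CPM in MC903 cDC2 (other DCs 1586 CPM). With clusters in place of gates, Irf8 in the MC903 cDC2 class had a log2 ratio of 0.020, so its lower level there holds for the gate and not for the cluster. The Ets factor Spib was not apart in either capture, and Zbtb46 was lower only in the MC903 counts, at 37.3 against 72.2 CPM. Of the 14 genes that respond to tissue handling (Fos, Jun, Egr1 and others), 8 were higher in the untreated cDC2 gate, with a median log2 ratio of 0.91, and 5 after MC903, with a median of 0.0053. Klf4 belongs to the same immediate-response kind of gene, and the part of handling in its level was not tested.

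Among Langerhans-gated DCs, 3 of the 9 genes were apart untreated (28.6% of all genes) and 6 after MC903 (23.4%). The gate held 50 and 52 barcodes, while the Langerhans-like cluster described below held 460 and 550. Those of its barcodes outside the gate that passed as DCs are among the other DCs here. Zeb2, Spib and Tcf4 were lower in both captures. With gates made after thinning, which left 21 and 7 barcodes, Spib (0.59) and Tcf4 (0.17) turned direction untreated and Spib (0.37) after MC903, and with thinned barcodes 1 gene (Zeb2) was apart untreated. In the untreated gate Zeb2 was at 95.03 CPM, where the other DCs had 177 CPM, and after MC903 it was at 57.3 CPM, where they had 146 CPM. Tcf4 was at 65.8 CPM (other DCs 156 CPM) and 67.2 CPM (other DCs 184 CPM). Spib had 3 UMIs in the untreated gate, with an interval of the log2 ratio from -3.82 to 0.02, and 1 UMI after MC903, with an interval from -9.75 to -1.96. In the MC903 capture Irf8 was higher (530 against 332 CPM), and Irf4 (63.2 against 96.4 CPM) and Klf4 (27.7 against 84.6 CPM) were lower. The direction of Irf8 turned with gates made after thinning (-0.078) and that of Irf4 with thinned barcodes (0.19). Id2, Batf3 and Zbtb46 differed from the other DCs by a log2 ratio between -0.20 and 0.18 in this gate.

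Of the 9 genes, 2 were apart in Apol7c/Apol10b-gated DCs of the untreated capture (4.0% of all genes) and 3 after MC903 (7.21%). Tcf4 was lower in both, with 108 CPM inside and 179 CPM outside the untreated gate, and 122 and 209 CPM after MC903. Klf4 was the other gene apart in the untreated gate, with 71.6 CPM inside and 111 CPM outside it. After MC903 Irf8 was higher (544 against 245 CPM, log2 ratio 1.15) and Irf4 lower (62.4 against 110 CPM, -0.82, -0.93 to -0.71). In the untreated capture Irf8 had a ratio of 0.47 and Irf4 of -0.48. The gate depended on Apol7c there: without that marker, an alternative chosen after seeing the data, 4 genes were apart, with Irf8 at 0.77 and Irf4 past the rule on the lower side. The share of all genes apart without Apol7c is not given.

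Free RNA in droplets gives UMIs in cells that do not express a gene, so the share of barcodes with a UMI was read after thinning each barcode to 2000 UMIs and set beside B-gated and T-gated barcodes of the same captures. Thinning left out 1062 untreated and 49 MC903 DCs, 132 and 24 B-gated and 108 and 11 T-gated barcodes that were shallower. Zbtb46 had a UMI in 12.3% of untreated and 13.8% of MC903 DCs, against 2.0% and 0.35% of T-gated and 2.37% and 0.256% of B-gated barcodes. The few barcodes gated as monocytes or macrophages lay nearer the DCs, with Zbtb46 in 11.8% untreated (8 of 68) and 9.09% after MC903 (3 of 33). Batf3 was found in 43.6% and 53.2% of DCs, against 10.5% and 6.29% of T-gated barcodes, and Id2 in 87.6% and 82.6% against 36.5% and 25.9%. Irf4, which B cells also express, was found in 10.3% and 15.5% of DCs against 4.0% and 3.5% of T-gated barcodes, and Zeb2 in 26.5% and 23.7% against 7.5% and 2.1%. In both captures these 5 genes stood above the T-gated level. Irf8, Spib and Tcf4 are expressed by B cells, so T-gated barcodes are their comparison: Irf8 had a UMI in 35.8% and 33.8% of DCs against 10.5% and 3.5%, Spib in 5.85% and 6.84% against 3.0% and 1.05%, and Tcf4 in 21.5% and 25.8% against 8.0% and 2.1%. The untreated T-gated share of Spib rests on 6 of 200 barcodes, and its interval (1.11% to 6.42%) includes the share in DCs. For Klf4 the shares were nearer still in 1 capture: untreated DCs (14.3%) lay close to untreated T-gated (13.0%) and B-gated barcodes (13.0%). After MC903 Klf4 was found in 12.8% of DCs, 4.9% of T-gated and 8.44% of B-gated barcodes. Whether T and B cells express Klf4 here was not tested. In the untreated cDC2 gate Klf4 was found in 34.5% of barcodes. Without thinning, the shares over DCs of the untreated and MC903 captures were 15.4% and 46.03% for Irf4, 44.7% and 60.1% for Irf8, 20.4% and 47.8% for Zbtb46 and 20.4% and 32.8% for Klf4. The larger gap between captures there goes with their median depths.

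The barcodes of both captures were also clustered together, without the 9 genes, Tnfsf4 and BFP. Of 22 clusters, 12 were DCs, and those with at least 50 barcodes in a capture (11 untreated, 10 after MC903) were compared. A cluster holds all its kept barcodes whatever their gate, so barcodes left out of the gated DCs can be among them. Clusters are named by number and leading genes, apart from cluster 18 (Xcr1, Clec9a, Wdfy4; cDC1-like), cluster 7 (Cd209a, Mgl2; cDC2-like) and cluster 3 (Epcam, Mfge8; Langerhans-like). Cluster 18 held 186 untreated and 9 MC903 barcodes, and cluster 7 held 755 and 50. The untreated cDC1 and cDC2 gates were smaller, with 42 and 225 barcodes. Barcodes of these clusters outside the gates can thus be among the other DCs of the gate comparisons. Levels by cluster are a description.

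Irf4 and Irf8 had their highest levels in different clusters. Irf4 was highest in cluster 12, led by the chemokine genes Ccl17 and Ccl22, at 164 CPM untreated (interval 132 to 202) and 226 CPM after MC903 (212 to 240). Next came cluster 1 (Myl7, Thy1, Dll4), at 137 and 124 CPM, whose untreated interval (118 to 157) overlaps that of cluster 12. Irf8 was highest in cluster 18 (824 CPM untreated), and after MC903 in cluster 6 (Asprv1, Laptm4b, Apol10b), at 738 CPM. Cluster 6 had little Irf4, at 26.9 and 27.8 CPM, and clusters 1 and 2 (Hspa1b, Jun, Sox4) had the least Irf8, between 104 and 119 CPM.

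**Figure D2:**
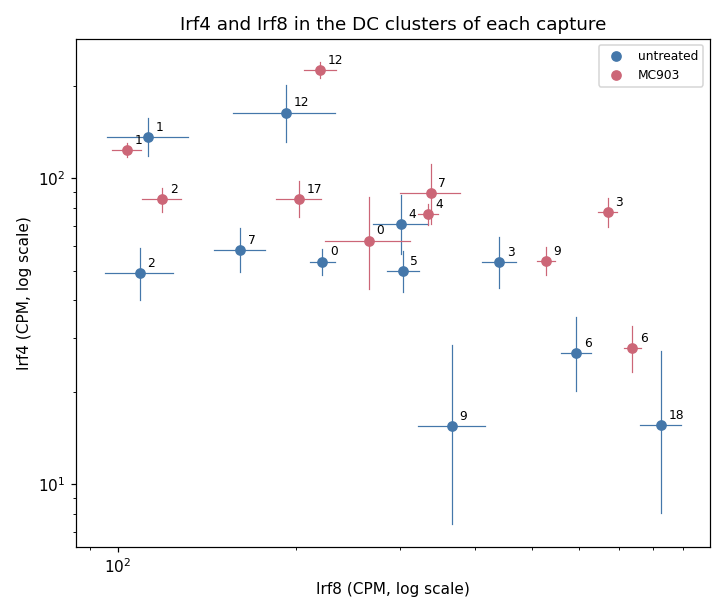
Irf4 (vertical) against Irf8 (horizontal) in CPM, both on log axes, in each numbered DC cluster with at least 50 barcodes of a capture. Points are sums over the barcodes of a cluster, and lines are exact 95% Poisson intervals. Cluster 12 has the most Irf4 in both captures, and clusters 6 (both captures) and 18 (untreated) lie at the lower right, with much Irf8 and little Irf4.

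After thinning to 2000 UMIs, there were 0.855 Irf8 UMIs per Irf4 UMI in untreated cluster 1 and 0.867 after MC903, against 21.2 and 22.4 in cluster 6. This ratio compares clusters, not the abundance of the 2 transcripts. In the same barcode, Irf4 alone was found in 18.4% of untreated cluster 1, Irf8 alone in 13.5% and both in 4.83%. In cluster 6 the shares were 2.13%, 51.4% and 2.74%. Of 37 thinned barcodes in the untreated cDC1 gate, 29 had Irf8 and 0 had Irf4, for which the 3-count limit is a share of 8.11% and the upper end of the exact interval 9.49%. Over all DCs both were found in 3.17% of untreated and 4.47% of MC903 barcodes, and at this depth most barcodes showed neither.

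The other genes had their own highest and lowest clusters. Id2 was highest in cluster 4 (Gpr65, Efnb2, Cxcl10), at 2942 and 3151 CPM, and lowest in cluster 7, at 772 and 340 CPM. Cluster 7 in turn had the most Klf4 (260 and 276 CPM) and Tcf4 (480 and 388 CPM), with cluster 1 next for Tcf4 (368 and 325 CPM). Zeb2 was highest in cluster 2 (299 and 233 CPM) and lowest in cluster 3 (35.5 and 33.8 CPM). Spib was highest in cluster 1 (64.1 and 86.3 CPM) and lowest in cluster 3 (7.99 and 3.45 CPM). Zbtb46 and Batf3 varied least: the highest cluster exceeded the lowest by 1.61-fold and 2.11-fold for Zbtb46 and by 2.00-fold and 2.46-fold for Batf3, while Irf4 spanned 10.6-fold and 8.12-fold and Irf8 7.56-fold and 7.12-fold.

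The reporter comparison asked how DCs with OX40L-BFP differ from those without. In the untreated capture, 2 of the 9 genes were apart, beside 7.17% of all genes. Irf4 was at 101 CPM in BFP+ (264 UMIs) and 47.2 CPM in BFP- DCs (673 UMIs), a log2 ratio of 1.10 (interval 0.89 to 1.31). Irf8 was lower, at 203 against 312 CPM (-0.62, -0.75 to -0.49). The other 7 genes lay between -0.25 (Klf4) and 0.42 (Tcf4), and the median over the 9 genes was 0.0048, against -0.0065 over all genes. Irf8 is just past the rule, and it was not apart with TMM scaling (-0.58). The BFP+ DCs were deeper sequenced, with a median of 4386 UMIs against 2596, and with barcodes thinned to 2000 UMIs the ratio of Irf4 was 0.77 and that of Irf8 -0.53. The log2 ratios of all 14 handling genes were below 0 here, with a median of -0.36, and 3 of them (Atf3, Hspa1a, Hspa1b) were past the rule. The part of depth and handling in these differences was not tested.

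After MC903, 2 of the 9 genes were apart between BFP+ and BFP- DCs, beside 3.15% of all genes. Irf8 was again lower, at 229 against 383 CPM (-0.74, -0.80 to -0.68). Tcf4 was higher, at 239 against 154 CPM (0.64, 0.57 to 0.70). Irf4 was at 105 and 91.0 CPM, a ratio of 0.21 (0.12 to 0.30), so that the difference seen without treatment was not of that size here. Spib had a ratio of 0.31, Id2 of -0.23, and the other 4 genes lay between 0.02 and 0.10. Restricted to ungated migratory DCs, 0 genes were apart, with Irf8 at -0.53 and Tcf4 at 0.44.

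**Figure D3:**
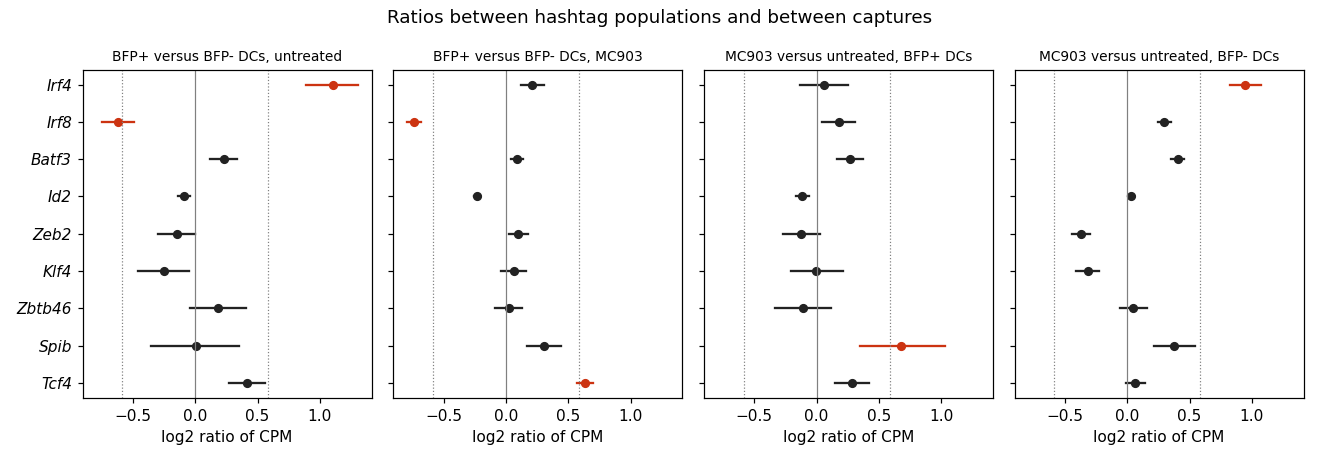
Log2 ratio of CPM for the 9 genes in the 2 reporter comparisons and the 2 treatment comparisons. Points are ratios of summed UMIs, lines are exact 95% intervals, dotted lines mark the 1.5-fold rule, and red points are past it. Irf8 is past the rule on the lower side in both reporter comparisons, Irf4 on the higher side untreated and Tcf4 after MC903.

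Between the captures, 1 of the 9 genes was apart in BFP+ DCs, beside 8.6% of all genes, and 1 in BFP- DCs, beside 10.0%. In BFP- DCs Irf4 was at 91.0 CPM after MC903 and 47.2 CPM untreated (0.95, 0.82 to 1.07). In BFP+ DCs it was at 105 and 101 CPM (0.06, -0.13 to 0.25). The untreated BFP- DCs were thus the population with low Irf4, and the other 3 populations lay between 91.0 and 105 CPM. In BFP+ DCs Spib was at 49.1 against 30.7 CPM (0.68, 0.34 to 1.03), on 80 untreated UMIs, and thinning took this to 0.31. In BFP- DCs Batf3 had a ratio of 0.40, Spib of 0.38 and Irf8 of 0.30, and Zeb2 of -0.37 and Klf4 of -0.32. The handling genes had a median of -0.49 in the same comparison, and 12 of 14 were below 0. These comparisons share samples with the reporter comparisons. The TMM log2 shift, which is subtracted from each ratio, was -0.13 in BFP- DCs. Over all genes the share of apart genes that were higher went from 46.8% to 66.0% in BFP+ and from 48.4% to 69.5% in BFP- DCs under it.

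The 4 populations fell into the clusters in different shares. Shares are of all barcodes in DC clusters, whatever their gate. These were 1431 BFP+ and 3159 BFP- barcodes after MC903, and 434 and 4217 untreated. Of the MC903 BFP+ barcodes, 34.7% were in cluster 1, 0.14% in cluster 3 and 0.84% in cluster 6. The MC903 BFP- barcodes had 474 of 3159 in cluster 1, 17.2% in cluster 3 and 13.2% in cluster 6. Of the untreated barcodes, 18.2% of BFP+ and 1.19% of BFP- were in cluster 1. Cluster 1 is high in Irf4 and Tcf4, and clusters 3 and 6 are high in Irf8, so the ratios were also taken inside clusters with at least 50 barcodes on each side.

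Inside clusters, untreated BFP+ DCs had more Irf4 than BFP- DCs in cluster 2 (88.8 against 27.6 CPM, log2 ratio 1.69, interval 1.05 to 2.34), cluster 4 (107 against 39.7 CPM, 1.43, 0.70 to 2.20) and cluster 1 (161 against 88.9 CPM, 0.86, 0.28 to 1.48). In cluster 0 (Ccl21a, Fxyd2) the ratio was 0.43, with an interval from -0.28 to 1.06, and in Apol7c/Apol10b-gated DCs it was 0.81 (0.33 to 1.27). After MC903 the ratios of Irf4 lay between -0.19 and 0.13 in 6 clusters, with all intervals including 0, and the ratio in Apol7c/Apol10b-gated DCs was 0.32 (0.052 to 0.58). The untreated Irf4 difference was thus also present inside clusters 1, 2 and 4, on 31, 36 and 23 BFP- UMIs.

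Irf8 was lower in BFP+ DCs after MC903 inside cluster 2 (68.7 against 143 CPM, -1.06), cluster 4 (261 against 385 CPM, -0.56), cluster 17 (-0.50) and cluster 1 (-0.22). In cluster 9, led by Isg15 and Fabp4, it was higher, at 610 against 451 CPM (0.43, 0.33 to 0.54), and in cluster 12 it was at 225 and 218 CPM. Tcf4 was higher inside clusters 12 (0.51) and 17 (0.53), with smaller ratios of 0.06 to 0.17 in the other 4. Cluster 17 is led by genes of salivary gland secretion (Bpifa2, Smr3a, Amy1), and their part in its values was not tested.

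**Figure D4:**
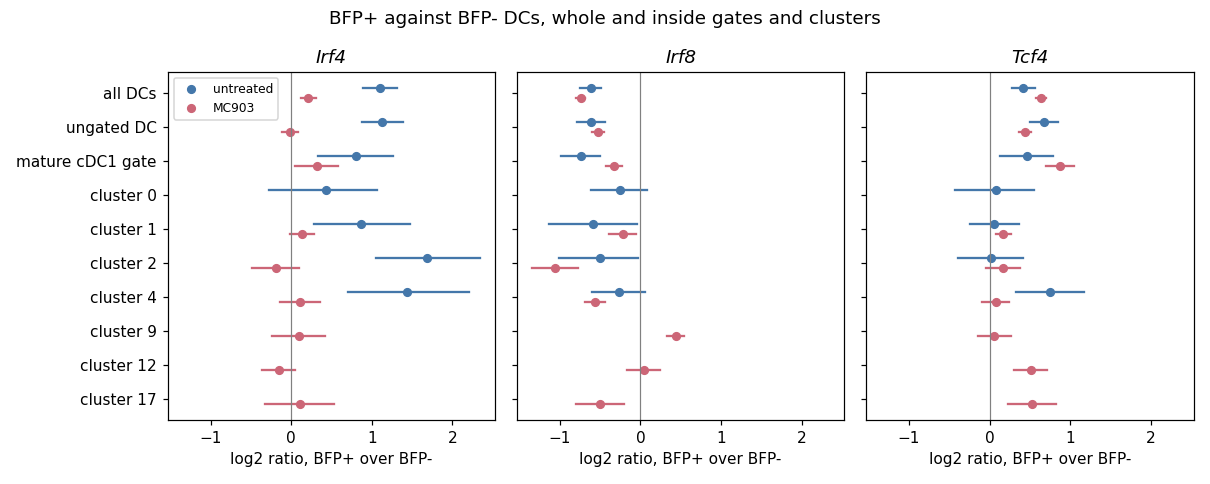
Log2 ratio of BFP+ over BFP- DCs for Irf4, Irf8 and Tcf4, over all DCs and inside gates and clusters with at least 50 barcodes on each side. Points are ratios of summed UMIs and lines exact 95% intervals. Irf4 is to the right of 0 in the untreated capture and near 0 inside the clusters after MC903, and Irf8 is to the right of 0 in cluster 9 alone with its interval clear of 0.

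Between captures, BFP- DCs had more Irf4 after MC903 inside cluster 2 (89.4 against 27.6 CPM, 1.70, 1.198 to 2.24), cluster 4 (72.7 against 39.7 CPM, 0.87) and cluster 3 (78.0 against 48.4 CPM, 0.69). In cluster 6 it was at 25.2 and 25.9 CPM (-0.04, -0.55 to 0.48), so no capture difference in Irf4 was detectable in the cluster that had the least Irf4 of the 5 compared. In cluster 1 the interval of the ratio (0.39) ran from -0.13 to 0.96.

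A list of 26 other transcription factors of DC biology was measured beside the 9 genes. Untreated, 5 of its 21 genes with enough UMIs were apart between BFP+ and BFP- DCs, beside 7.17% of all genes. Runx2 (74.7 against 38.1 CPM), Etv6 and Runx3 were higher, and Cebpb and Klf2 lower. The list's median was -0.13. After MC903 2 of 19 were apart, beside 3.15% of all genes: Runx2 (93.7 against 58.2 CPM) and Bcl11a (22.5 against 14.3 CPM), both higher. The Runt factor Runx2 was therefore higher in BFP+ DCs of both captures. Between captures, Bcl6, a repressor, was lower after MC903 in BFP+ DCs (14.5 against 29.5 CPM), as the only 1 of 20, beside 8.6% of all genes. In BFP- DCs 6 of 21 were apart, beside 10.0% of all genes. Of these, 2 were higher after MC903 (Runx2 and Runx3) and 4 lower, with the largest ratios in Cebpb, Bcl11a and Klf2.

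By gate, Bcl11a, a zinc finger factor of pDC and B cell development, was at 143 CPM in untreated cDC2 (other DCs 22.3 CPM) and 72.5 CPM in MC903 cDC2 (other DCs 15.8 CPM). The aryl hydrocarbon receptor gene Ahr was at 359 against 39.5 CPM in the untreated cDC1 gate and at 131 against 39.2 CPM in the MC903 one. Relb, an NF-kB subunit of maturing DCs, was at 117 against 567 CPM in the untreated cDC1 gate. These gates thus also differed in factors outside the 9 genes.

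The genes most alike in pattern were ranked by Spearman correlation of log2(CPM + 10) over 17 sums of gate, population and capture, among 7537 genes. These sums include B-gated and T-gated barcodes and share libraries, so the coefficients are a description. For Irf4 the nearest were Map3k1 (0.88), Nubp1 (0.88) and St8sia4 (0.85), and for Irf8 Srebf2 (0.90), Gga2 (0.86) and Sp140 (0.83). Tcf4 was nearest to H2-Eb1 (0.89), Ly86 (0.89) and H2-Aa (0.88), of which H2-Eb1 and H2-Aa encode MHC class II chains. Spib was nearest to Cnn3 (0.90), and Zeb2 to Tmem184b (0.95) and Myo5a (0.95). Id2 was nearest to Cdkn2b (0.97), Klf4 to Lims1 (0.89), Batf3 to Rogdi and Fabp5 (0.98 each, after Gng5, which had the same rank order) and Zbtb46 to Cox6b2 (0.91).

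Because the clusters highest in Irf4 and in Irf8 differed, the 250 bases before their start sites were read from RefSeq (GRCm38.p6, plus strand for both genes, matched by symbol as were 8 of the 9). The GENCODE annotation of GRCm38, from which the gene positions come, places the start of Irf4 a few bases away. The windows read for Batf3, Id2 and Zbtb46 lay inside the genes as annotated there. That of Zbtb46 was chr2:181424389-181424638, far from the annotated start at 181459426 on the minus strand. Irf4 (ENSMUSG00000021356, protein coding) lies at chr13:30749226-30766976 and Irf8 (ENSMUSG00000041515, protein coding) at chr8:120736358-120756694 in GRCm38. Capitals mark matches to TTCNNNGAA (the interferon-gamma-activated site, GAS, bound by STAT dimers), TGANTCA (AP-1), the interferon-stimulated response element (GAAA, any 2 bases, GAAA) or an ETS-IRF composite (GGAA, any 2 bases, GAAA), searched on both strands. The E-box CANNTG, bound by E proteins such as TCF4, was also searched and is not marked.
Irf4, chr13:30748983-30749232: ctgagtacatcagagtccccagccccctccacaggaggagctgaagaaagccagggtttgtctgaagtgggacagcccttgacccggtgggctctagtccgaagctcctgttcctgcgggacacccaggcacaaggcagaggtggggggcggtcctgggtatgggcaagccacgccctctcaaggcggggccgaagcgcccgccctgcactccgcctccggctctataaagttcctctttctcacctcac
Irf8, chr8:120736108-120736357: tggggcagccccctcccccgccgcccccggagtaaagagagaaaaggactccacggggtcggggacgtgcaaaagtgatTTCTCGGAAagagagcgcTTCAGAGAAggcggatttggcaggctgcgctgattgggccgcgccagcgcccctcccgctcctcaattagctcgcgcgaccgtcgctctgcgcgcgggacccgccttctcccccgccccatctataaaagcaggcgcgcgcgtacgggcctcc
The Irf8 sequence held 2 GAS matches, and the Irf4 sequence held no match to any of the 5 motifs. A GAS match stood in 2 of the 8 genes with a promoter in the table, Irf8 and Batf3, and in 7.18% of all 27025 promoters of the same length. The AP-1 letters stood in 1 of 8 (Zbtb46) and in 6.87% of all, while the other 2 motifs stood in 0 of 8 and in 3.04% and 2.38% of all, and the E-box in 5 of 8 and 66.0% of all. A match describes these letters and is not a measured site.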

How the data were processed

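The authors deposited raw counts of UMIs for each barcode, by gene and by hashtag. The file headers name Cell Ranger 3.1.0, and the genome is GRCm38 per the submitters' processing notes. No source used here says whether doublets had been removed, and no doublet caller was run. Barcodes with mixed hashtags stayed out of the population sums. Kept were barcodes that reached 500 genes with no more than 10% mitochondrial UMIs. The kept barcodes held 31503437 untreated and 55885112 MC903 UMIs.

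Barcodes with 2 or more markers of a B, T, NK, neutrophil, plasma cell or stroma list but more of the migratory DC list (1941 untreated, 466 MC903) were left out of the DCs, as were those with at least as many markers of another lineage and ties between DC types. Gate comparisons used all hashtag states, and clusters took barcodes whatever their gate. HTODemux of Seurat 5.3.0 was an alternative and not the main assignment, because of the untreated barcodes it called BFP+, 588 had a dominant BFP+ hashtag, 278 a dominant BFP- hashtag and 1551 mixed hashtags. It left 4484 untreated barcodes with a dominant BFP- hashtag negative.

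CPM are summed UMIs scaled by the total of the same barcodes, and the interval of a log2 ratio is the exact one for a pair of Poisson counts. A gene at 0 in 1 sum took 3 counts as a bound. Where that bound was at or above the level of the other sum, no ratio was given and the gene was not called, but it stayed among the genes compared. Clusters were made with scanpy 1.11.5 and leidenalg 0.10.2 (2000 variable genes, 30 principal components, 15 neighbours, resolution 0.8), and TMM factors with edgeR 4.0.16. The ratio, thinning and gate calculations were checked on simulated data.

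The 9 genes always, the 3 other transcription factors each way with the largest ratio per comparison and the 3 genes most alike each gene in pattern could be named, and those printed are a part of these. The genes and lists were chosen with earlier results of these data known.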

Additional observations from a re-analysis of the deposited data

Results flagged for a closer look

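With 1 pool per population, no group had enough samples to look for a sample far from the others. The same contrast had opposite directions, with both counting intervals clear of 0, in 7 cases, and none of these differences was tested. Id2 had a log2 ratio of -0.11 between MC903 and untreated BFP+ DCs and of 0.029 between MC903 and untreated BFP- DCs. The TMM log2 shift subtracted from each ratio was -0.099 in BFP+ and -0.13 in BFP- DCs. These shifts are close in size to the first ratio and larger than the second, so this flag depends on the scaling used.

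For BFP+ against BFP- DCs after MC903, Irf8 had a ratio of 0.43 in cluster 9 and of -1.06 in cluster 2, and it was above 0 in 1 and below 0 in 4 of 6 clusters. Klf4 had a ratio of 0.66 in cluster 17 and of -1.04 in cluster 12. Spib had a ratio of 0.72 in cluster 17 and of -0.25 in cluster 1.

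For BFP+ against BFP- DCs in the untreated capture, Id2 had a ratio of 0.36 in cluster 1 and of -0.33 in cluster 4. For MC903 against untreated, Id2 in BFP+ DCs had a ratio of 0.24 in cluster 2 and of -0.45 in cluster 1, and Tcf4 in BFP- DCs had a ratio of 0.37 in cluster 3 and of -0.33 in cluster 1. These pairs were the highest and lowest of several clusters, and 9 genes were looked at in each contrast.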

How the results depend on the processing

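No paired analysis was possible because there is 1 pool per population. Of 120 counts of genes apart recomputed under another setting, 95 stayed within 1.5 times. Of the single ratios, 861 stayed inside their counting interval, 204 moved and 11 reversed. Irf4 was higher in untreated BFP+ DCs (0.77 to 1.27) and in MC903 BFP- DCs (0.86 to 1.17) under all 12 alternatives, and past the 1.5-fold rule in each.

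Untreated, BFP+ against BFP- DCs had 1 gene apart (Irf4) with HTODemux, with thinned barcodes, with TMM scaling and with mixed barcodes kept. After MC903 that comparison had 1 with thinned barcodes (Irf8) and 0 among ungated DCs. Between captures, BFP+ DCs had 0 with HTODemux, with gates after thinning and with thinned barcodes, and BFP- DCs had 2 (Irf4, Spib) among ungated DCs. The untreated cDC1 gate had 5 with thinned barcodes, with clusters in place of gates and with mixed barcodes kept, and the MC903 cDC1 gate had 4 with gates after thinning (2 barcodes) and with thinned barcodes. The untreated Apol7c/Apol10b gate had 4 with at least 3 markers and without Apol7c, 1 with gates after thinning, thinned barcodes or mixed barcodes kept, and 5 with clusters. After MC903 it had 5 with gates after thinning and with clusters. The untreated Langerhans gate had 5 with at least 3 markers and 1 with thinned barcodes. Keeping mixed barcodes and leaving out Apol7c were chosen after seeing the data.

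Reversed ratios with gates after thinning were Batf3 (0.076) and Klf4 (0.49) in the MC903 cDC1 gate, Spib (0.59) and Tcf4 (0.17) in the untreated Langerhans gate, and Irf8 (-0.078) and Spib (0.37) in the MC903 one. With thinned barcodes they were Batf3 (0.054) and Zbtb46 (0.046) in the untreated cDC1 gate, Zbtb46 (0.71) in the MC903 one and Irf4 (0.19) in the MC903 Langerhans gate. With clusters, Irf8 was at 0.020 in the MC903 cDC2 class. These sums are small, and the cause was not tested. In 4 cases thinning left no UMI and a bound above the other level, so no ratio was given.

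TMM scaling took the share of apart genes that were higher from 62.1% to 40.5% in the MC903 cDC1 gate, from 65.0% to 43.4% in the untreated Langerhans gate and from 58.8% to 38.2% in the MC903 one. The shift subtracted from each ratio there was 0.36, 0.17 and 0.15. The number of barcodes limits the MC903 cDC1 gate (8), and few Spib UMIs were found in the cDC1 and Langerhans gates (0 to 3).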
